A study of Mus musculus with 10 samples.

Results

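C1q-negative infiltrating monocytes were examined in single-cell RNA libraries from the mouse kidney cortex, in normal kidneys and at 6 times after injury. A cell belonged to this population if it held at least 2 of the 6 genes Ccr2, Ms4a4c, Ms4a6c, Ly6c2, Lyz2 and Fn1, with Ccr2, Ms4a4c or Ly6c2 among them. It also had to hold no unique molecular identifier (UMI, the tag that marks 1 captured RNA molecule) of 7 genes of other cells. These were the complement genes C1qa, C1qb and C1qc of macrophages, Cd3e, Slc12a1, Pecam1 and Havcr1. Only barcodes with 500 or more detected genes, and no more than 50% of UMIs from mitochondrial genes, entered the count. The rule found 1490 cells among 52797 kept cells (2.82%), which are called monocytes here by the rule alone. Their markers, given below, do not bear out the name for every cell. The cells were thus chosen by the measured UMIs of these 13 genes, whose levels are given as descriptions and carry no test.

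All mice were aged 4 weeks. The control group was 1 library of normal kidneys. Injured kidneys gave 1 library each on days 1, 2 and 4, and 2 libraries each on days 7, 11 and 14. Strain, sex, genotype, the way the injury was made and the animals behind each library are not stated in the labels. Since nothing says that the 2 libraries of a day came from separate animals, every p-value measures only the spread between these libraries, which may be technical. Days 1, 2 and 4 have no replicate.

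Classical monocytes are made in the bone marrow and carry Ly6C and the chemokine receptor CCR2. The ligand CCL2 draws them out of the blood into injured tissue. There they can become macrophages, which take up dead cells and, in the mouse kidney, commonly express the C1q genes, or they can become patrolling nonclassical monocytes, which lower Ly6C and raise CX3CR1. Monocytes also answer interferon strongly, by switching on antiviral genes such as Isg15, Rsad2 and the Ifit family.

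Most of the cells held genes of white blood cells, but not to the same degree in every library. Of the 1490 monocytes, 1077 (72.3%) held at least 2 of 8 genes shared by white blood cells. This share was 76.6% on day 1, 72.0% on day 2, 82.3% on day 4, 59.0% and 69.2% on day 7, 78.8% and 37.1% on day 11, then 76.9% and 96.6% on day 14. It lay between 91.6% and 100% in the C1q-positive macrophages, cells with at least 2 of the 3 C1q genes, and between 0.314% and 12.0% in cells that passed a gate of at least 3 of 5 proximal tubule genes. Replicate 2 of day 11 stood apart, with 13 of its 35 monocytes holding 2 such genes. These genes do not tell monocytes from other white blood cells. At least 2 of 14 dendritic cell genes were held by up to 51.5% of members (replicate 1 of day 11), and at least 2 of 16 T and NK cell genes by up to 23.1% (replicate 1 of day 14, 3 cells). Libraries shared 62 pairs of barcodes among kept cells and 1 pair among monocytes.

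RNA of tubule cells was present in the monocytes and moved with the day. The 18 genes of a proximal tubule list made up 0.0944% and 0.0760% of monocyte UMIs on day 7, 4.80% and 4.10% on day 11, then 1.93% and 0.986% on day 14. The 11 genes of an injured tubule list went the other way, with 1.87% and 1.51% on day 7 and at most 0.0805% on days 11 and 14. In the macrophages the proximal list reached 1.37% at most. The injured tubule list took 0.380% and 0.203% of macrophage UMIs on day 7, but 1.04% on day 1, when the monocytes had 1.14%. Whether these RNAs came from free RNA, doublets or tubule cells that met the rule was not tested. Of the monocytes, 117 also passed the proximal gate and 601 held at least 2 markers of another lineage.

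**Figure D1:**
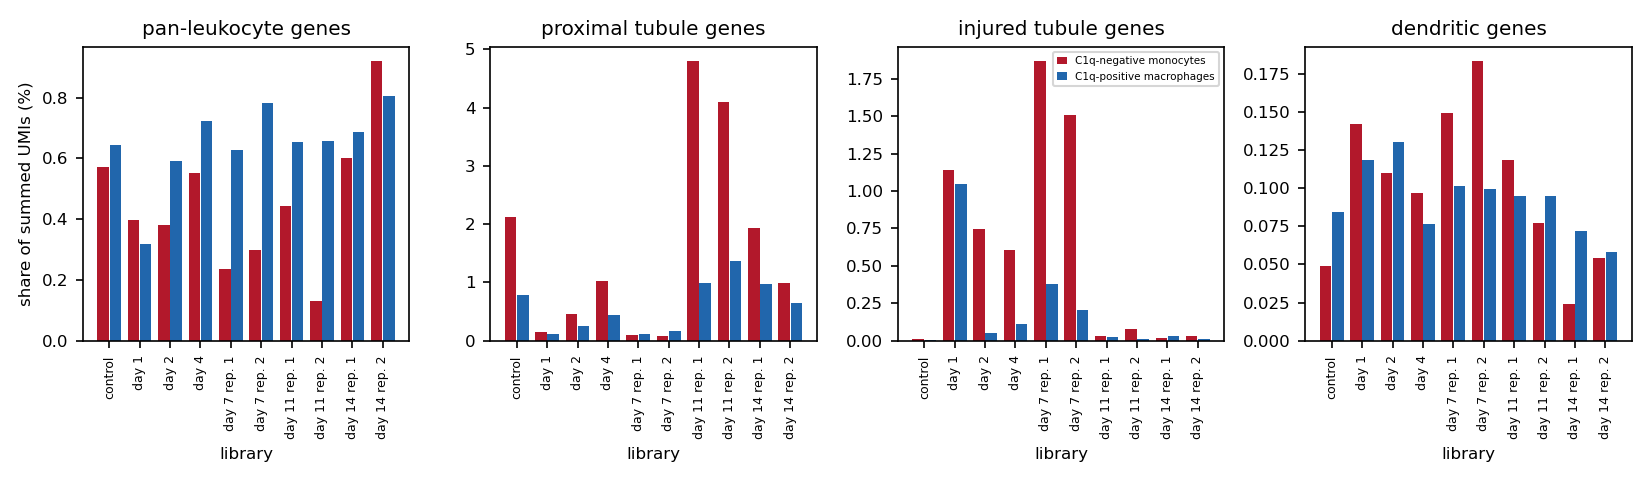
Share of summed UMIs (%, a separate vertical scale in each panel) taken by 4 marker lists in each library, for C1q-negative monocytes (red) and C1q-positive macrophages (blue). Proximal tubule genes peak at 4.80% of monocyte UMIs on day 11 and injured tubule genes at 1.87% on day 7, and the white blood cell share is lowest in replicate 2 of day 11.

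At the edge of the rule, members with 2 of the 6 positive genes held 2 white blood cell genes in 46.0% of 676 cells. The share was 88.4% of 346 cells with 3 positive genes and 98.3% of 468 cells with 4 or more. Just outside, 1861 cells with a single positive gene held them in 11.7%, and 242 cells that failed by 1 C1q UMI held them in 73.1%. These 242 cells were uneven by day. Replicates 1 and 2 of day 7 held 119 and 59 of them, day 4 held 42, and any other library at most 12. They count neither as monocytes nor as macrophages in the shares and the balance below, which leaves out most cells on day 7.

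Monocytes were rare in the normal kidney, frequent in the first week after injury and rare again from day 11. They made up 0.0815% of kept cells in the control (5 cells, exact 95% interval 0.0265% to 0.190%), 3.59% on day 1, 7.68% on day 2 (6.88% to 8.54%), 5.89% on day 4, and 6.27% and 6.36% on day 7. They then made up 0.610% and 0.663% on day 11 and 0.187% and 0.469% on day 14. Both libraries of day 7 lay above both of day 11, and these above both of day 14. With at least 3 positive genes the shares were 2.10% and 2.99% on day 7, 0.240% and 0.0757% on day 11. They were then 0.101% and 0.372% on day 14, so day 11 no longer lay above day 14. With every cell thinned to 800 UMIs the shares were 0.378% and 0.312% on day 11 and 0.161% and 0.476% on day 14. Over the 9 injured libraries the share under the rule as given fell with log2 of the day by rank (Spearman's rho = -0.77, two-sided exact permutation p = 0.0201, 0.0403 after Benjamini-Hochberg adjustment over 2 trends). Pearson's r was -0.60, with an exact permutation p of 0.0894, which misses the threshold. Without days 1 and 2, the libraries farthest from the median day, r was -0.88 (exact permutation p = 0.0206). Leaving out day 2 or any library of day 11 or 14 left rho between -0.76 and -0.67 with an adjusted exact permutation p of 0.0690 to 0.154.

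The rule also passed some cells that met the proximal tubule gate. Whether these were tubule cells, doublets or monocytes with free RNA was not tested. Of proximal gate cells it passed 3.35% on day 2, 1.33% on day 4, 2.0% and 1.10% on day 7, and at most 0.382% in the other libraries. On day 1 it passed 0 of 385, which allows up to 0.954% (exact 95% interval). The median depth of these proximal cells was 2718 UMIs on day 2, against 1803 in the monocytes of that day. With every cell thinned to 800 UMIs, the share still fell with day (rho = -0.75, exact permutation p = 0.0246, adjusted 0.0491). Without the monocytes in the proximal gate, rho was -0.69 and the adjusted exact permutation p was 0.0906. In these libraries a lower share of monocytes cannot be told apart from a higher number of other cells captured.

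Against macrophages, monocytes made up the larger number only early on and in 1 late library. There were 87.1 monocytes per 100 cells of both classes on day 1, 78.9 on day 2 and 55.9 on day 4. The balance then stood at 24.2 and 22.4 on day 7, when macrophages numbered 711 and 1137 cells. It was 26.8 and 37.6 on day 11 and 36.1 and 54.7 on day 14, with 12.2 in the control. These values depended on the rule. With at least 3 positive genes the balance was 46.6 on day 4 and 9.66 and 11.9 on day 7. It was then 12.6 and 6.45 on day 11 and 23.3 and 48.9 on day 14. Under that rule monocytes were the smaller number on day 4 and in every later library. The linear trend under the rule as given was downward (r = -0.79, exact permutation p = 0.0125, adjusted 0.0249) but rested on days 1 and 2, without which r was -0.08 and rho 0.13. Over all 9 libraries rho was -0.48 (exact permutation p = 0.193).

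**Figure D2:**
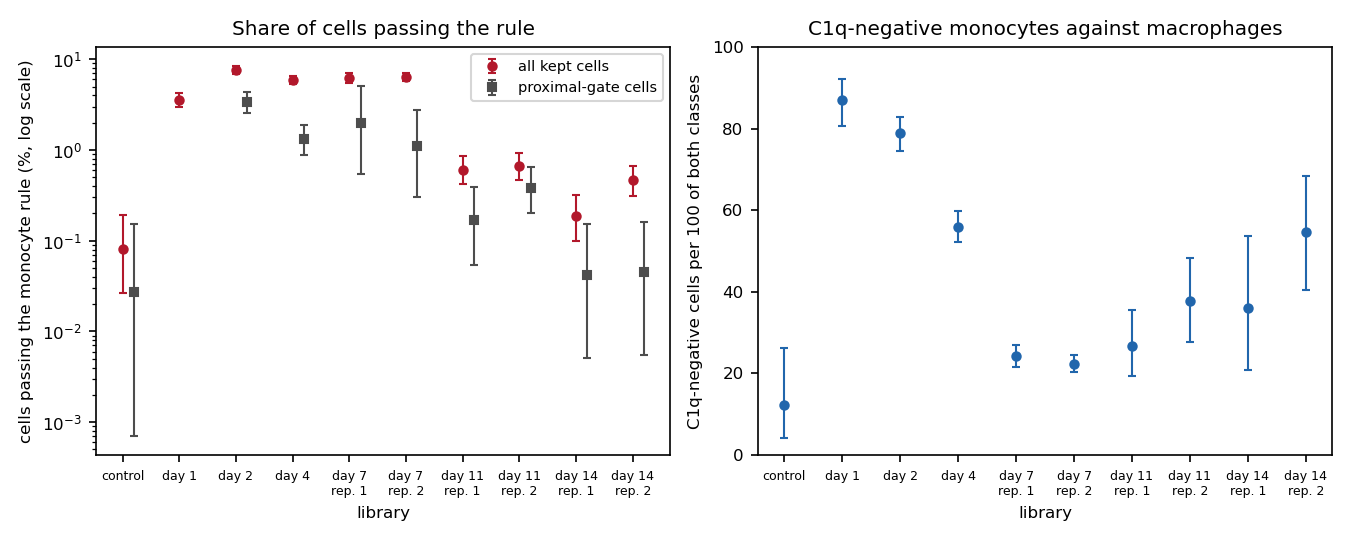
Left, share of kept cells (red) and of proximal gate cells (grey) that pass the monocyte rule in each library, on a log scale, with exact 95% intervals for counting error; day 1, with 0 of 385 proximal cells, has no grey point. Right, monocytes per 100 monocytes and macrophages, which fall from 87.1 on day 1 to 22.4 on day 7 and reach 54.7 in replicate 2 of day 14.

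Among the positive genes of the rule, monocytes of different days passed through different genes. Ly6c2, which encodes a Ly6C antigen, was detected in 29.7% of monocytes on day 1, 72.3% on day 2, 66.7% on day 4, 45.4% and 39.3% on day 7, 27.3% of replicate 1 and 21 of 35 cells of replicate 2 on day 11, then 69.2% and 58.6% on day 14. Ms4a4c, a membrane protein gene of the MS4A family, was found in 65.0% on day 2, 8.37% and 14.02% on day 7, then 46.2% and 86.2% on day 14. Ccr2 was held by 79.7% on day 1 and by 53.8% to 75.9% on the later days, apart from 40.0% in replicate 2 of day 11. Lyz2 and Ccr2 carried most of the day 7 cells, since Lyz2 was detected in 94.7% and 86.9% of them. Lyz2 was also found in 59.0% and 38.02% of the proximal gate cells of day 7. The last 300 bases of the Ly6c1 and Ly6c2 transcripts are 97.0% identical, so reads of the 2 genes may be exchanged.

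Plac8, a gene of classical monocytes that the rule did not use, was detected most often on days 2, 4 and 14. At 800 UMIs per cell it was detected in 23.1% of monocytes on day 1, 62.6% on day 2, 48.6% on day 4, 17.7% and 20.3% on day 7, 9.09% and 0% on day 11, then 75.0% and 73.1% on day 14. In proximal gate cells at the same depth it was found in 12.99% (day 2), 19.2% (day 4), 20.1% and 11.9% (day 7) and at most 1.25% (day 14). The day 7 monocytes of replicate 1 were thus no higher than the proximal gate cells, whereas those of day 14 were far above them. Proximal gate cells are no clean measure of background, since 12.0% of them held 2 white blood cell genes in that day 7 library. The source of the Plac8 RNA on day 7 was not tested. Unthinned, Plac8 was found in 27.8% and 33.2% of day 7 monocytes, against 45.5% and 36.9% of the deeper proximal cells, and in 76.9% and 86.2% of day 14 monocytes. Among day 14 macrophages it was found in 0% and 16.7% at 800 UMIs.

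Gene levels were compared on UMIs summed over the monocytes of a library, as CPM, the UMIs of a gene scaled to a common total per library. Libraries with at least 20 monocytes entered the tests, which left out the control (5 cells) and replicate 1 of day 14 (13 cells). Day 14 is therefore 1 library in every test, replicate 2 with 29 cells, and is assumed to vary like the replicated days. Its 37035 monocyte UMIs make 1 UMI worth 27.0 CPM, and in replicate 1, with 20589 UMIs, 1 UMI is worth 48.6 CPM. The tested sums ranged from 37035 to 1069676 UMIs.

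In the tested day 14 library, monocytes had more RNA of interferon response genes than those of day 7. Of 9018 genes tested, 159 (1.76%) passed edgeR's quasi-likelihood test (Benjamini-Hochberg threshold 0.05), 101 higher (1.12%) and 58 lower (0.643%). Of the 101 higher genes, 82 were at least 2 times as high in the monocytes as in the other kept cells of day 14. Of a list of 33 interferon response genes, all tested, 15 rose and none fell. The list's median log2 change was 2.58, against -0.62 over all genes tested. With replicate 1 of day 14 admitted, 149 of all 7631 genes tested rose. With only monocytes that held 2 white blood cell genes, 16 of the 33 rose, and with replicate 1 of day 14 admitted, 14 of 32 rose. Without single libraries the number of calls was 69 without day 2 or day 4, 104 and 98 without replicates 1 and 2 of day 7, and 372 and 367 without replicates 1 and 2 of day 11. Markers of other cells moved as well: 4 of 17 tested proximal tubule genes rose (Slc34a1, Kap, Miox and Acsm2) and none fell, with a median log2 change of 2.56. In addition, 3 of 8 white blood cell genes (Srgn, Tyrobp and Fcer1g) and 2 of 4 tested B cell genes rose, Ighm and Ms4a1, the latter with 7 counts on day 14 and 0 on day 7. The part of tubule RNA and of B cells in the result was not tested. Monocytes of these libraries also passed the rule through different genes. Ms4a4c was detected in 8.37% and 14.02% of them on day 7 and in 86.2% in the tested day 14 library. The part of this selection in the interferon result was not tested. Counts of called genes over or below other kept cells, here and further on, used the same libraries as the calls. They are no separate support for the source of the RNA, and the share over all genes tested was not computed.

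Isg15, a ubiquitin-like protein that is joined to other proteins during antiviral responses, stood at 83.5 CPM on day 1, 1742 on day 2, 135 on day 4, 72.6 and 60.5 on day 7, 35.3 and 8.13 on day 11, then 48.6 and 729 on day 14. Day 2 and replicate 2 of day 14 were high and all other libraries were at least 5 times lower than the latter. It rose by 3.34 ± 0.52 (SE) on the log2 scale from day 7 to day 14 (edgeR adjusted p = 0.000235). Irf7, the factor that amplifies interferon production, had 510 CPM on day 2, and then 32.5 and 45.6 in the day 7 pair but 97.1 and 621 in the day 14 pair. The 97.1 CPM of replicate 1 of day 14 are 2 UMIs. The 2 libraries of day 14 thus differed, and the rise rests on replicate 2. The log2 change was 3.83 ± 0.53 (edgeR adjusted p = 3.92e-05). Rsad2, which encodes the antiviral enzyme viperin, had 1464 CPM on day 2, 53.5 and 33.7 in the day 7 pair, then 0 and 864 in the day 14 pair, where the 0 comes from the library in which 3 UMIs would be 146 CPM. Its log2 change was 4.22 ± 0.51 (edgeR adjusted p = 7.92e-06).

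Among the other genes with the largest changes that were also higher in monocytes than in other cells were Mx1 (5.35 ± 0.85 on the log2 scale), Slfn4 (4.49 ± 0.94), Ifi204 (4.22 ± 0.54), Ifit2 (4.13 ± 0.57), Usp18 (4.02 ± 0.64), Slfn1 (3.85 ± 0.68) and Zbp1 (3.80 ± 0.66), all with edgeR adjusted p at or below 0.00648. Mx1 and Slfn4 are not on the list. Mx1 restricts viruses, Ifi204 and Zbp1 are linked to the sensing of nucleic acids, and Usp18 removes ISG15 from proteins. Mx1 stood at 3.82 and 8.93 CPM on day 7 and at 48.6 and 324 on day 14. In replicate 1 of day 14 the values of Mx1, Ifi204, Ifit2, Usp18 and Slfn1 were each 48.6 CPM, a single UMI, and Slfn4 had none. The height of these 6 genes on day 14 thus rests on replicate 2.

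The day 2 and day 14 highs differed in which other cells shared them. On day 2, Isg15 stood at 1764 CPM in the macrophages and 1143 in all other kept cells, near the 1742 of the monocytes. In replicate 2 of day 14 it stood at 357 CPM in the macrophages and 32.5 in the other cells, against 729 in the monocytes. Irf7 had 514 CPM in the macrophages, 19.5 in the other cells and 621 in the monocytes of that library. Between the 2 days this difference was not tested.

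Some promoters of these genes hold the core of the element that interferon-activated factors bind, which is why they are shown. RefSeq promoters (GRCm38.p6) were found for 12 of the 15 interferon genes that rose. The motif searched was GAAA, any 2 bases, then GAAA, or on the other strand TTTC, any 2 bases, then TTTC, with overlapping matches included. It occurred within 250 bases before the start of 7 of the 12 genes (Ifi205, Ifit3, Isg15, Rsad2, Slfn5, Stat2 and Trim30a), against 3.46% of all 27025 genes in the table. These genes come from a list of interferon response genes, and the genes of the list that did not rise were not searched. The difference in share is therefore no result of these data. A match describes the letters only. Capitals mark the motif in these stretches, read 5′ to 3′ on the strand of the gene.
Isg15, chr4:156200819-156200916, minus strand: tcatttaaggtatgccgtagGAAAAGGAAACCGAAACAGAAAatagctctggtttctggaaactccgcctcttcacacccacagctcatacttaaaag
Ifit3, chr19:34583353-34583472, plus strand: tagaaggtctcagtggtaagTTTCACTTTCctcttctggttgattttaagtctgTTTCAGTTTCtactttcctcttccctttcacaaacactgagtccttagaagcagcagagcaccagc
Rsad2, chr12:26456473-26456592, minus strand: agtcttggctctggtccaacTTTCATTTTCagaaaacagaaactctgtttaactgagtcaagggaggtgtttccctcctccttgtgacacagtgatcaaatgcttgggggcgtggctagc
The 3 overlapping matches of Isg15 begin 78, 72 and 66 bases before its start, and Ifit3 holds 2 separate matches.

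**Figure D3:**
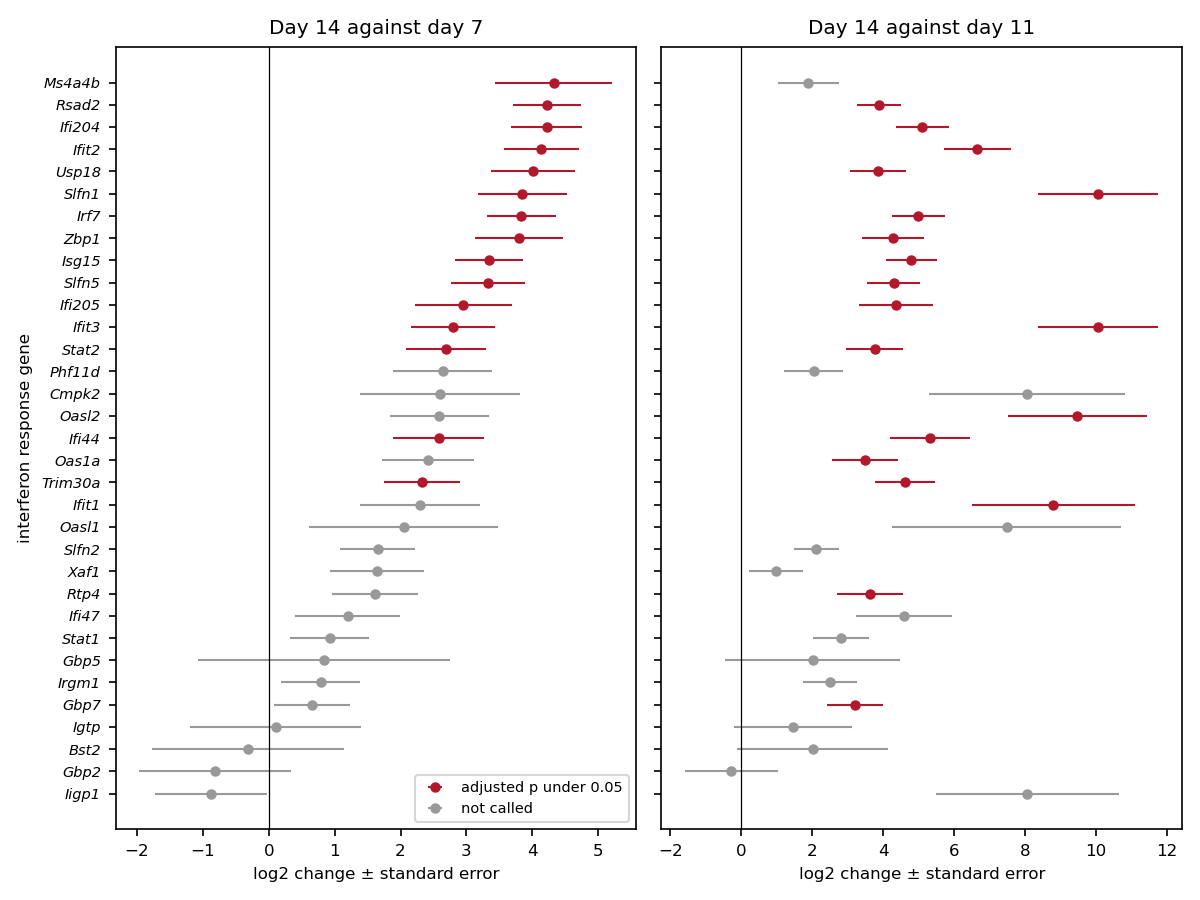
Log2 change with its standard error for the 33 interferon response genes in monocytes, day 14 against day 7 (left) and against day 11 (right), ordered by the left panel; red points passed an edgeR adjusted p of 0.05. Of the 33 genes, 15 rose against day 7 and 19 against day 11, and none fell. Values near 10 on the right come from genes with no UMI on day 11 and are not sizes of change. Day 14 is 1 library in both panels, replicate 2 with 29 cells.

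Il1b, the gene of the inflammatory cytokine interleukin-1 beta, was highest late. It had 549 CPM on day 1, 187 on day 2, 256 on day 4, 97.4 and 212 on day 7, 764 and 447 on day 11, then 1069 and 3132 on day 14. All 4 libraries of days 11 and 14 were above both of day 7. The log2 change was 2.22 ± 0.42 from day 7 to day 11 (edgeR adjusted p = 0.000361) and 4.20 ± 0.48 to day 14 (edgeR adjusted p = 2.56e-06). Without replicate 1 of day 7 the change to day 11 was 1.75 and did not pass (edgeR adjusted p = 0.123). The control macrophages had 6871 CPM of Il1b, and the other kept cells of all libraries had at most 107. From a list of 31 inflammatory genes, 24 were tested, and 3 rose on day 14 and none fell. They were Il1b and the chemokine genes Ccl4 (3.58 ± 0.44) and Ccl3 (3.07 ± 0.62). Ccl4 stood at 91.7 and 107 CPM on day 7 and at 97.1 and 1296 on day 14, so replicate 1 of day 14 lay within the day 7 range. Among monocytes that held 2 white blood cell genes, 3 of 21 inflammatory genes rose and 2 fell.

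Of 28 tested genes of classical monocytes, 4 rose on day 14 and none fell: Plac8, Ifitm3, Ifitm6 and Msrb1. The list's median log2 change was -0.09 (0.68 with genes at 0 on 1 side set to 3 counts), against -0.62 over all genes. Plac8 had 479 CPM on day 1, 2185 on day 2, 1254 on day 4, 235 and 349 on day 7, 82.3 and 0 on day 11, then 1846 and 3078 on day 14. Both day 14 libraries were more than 5 times over both of day 7, and the log2 change was 3.27 ± 0.52 (edgeR adjusted p = 0.000318). Ifitm3, an interferon-induced membrane protein, had 369 and 450 CPM on day 7 and 1506 and 3078 on day 14 (2.79 ± 0.45). Ifitm6, a myeloid relative, had 9.55 and 8.93 CPM on day 7 and 291 and 324 on day 14 (4.99 ± 0.86).

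From 17 tested genes of nonclassical monocytes, 3 rose on day 14 and none fell. Cx3cr1, the fractalkine receptor, had 97.4 and 74.4 CPM on day 7 and 48.6 and 432 on day 14, with a log2 change of 2.23 ± 0.56 (edgeR adjusted p = 0.0312). With replicate 1 of day 14 admitted, the change of Cx3cr1 was 1.37 and no longer passed (edgeR adjusted p = 0.142), and without day 2, day 4 or either day 7 library it lay between 2.12 and 2.48 with edgeR adjusted p of 0.0559 to 0.239. Gngt2, a G protein subunit, had 49.7 and 43.6 CPM on day 7 and 680 and 351 on day 14 (2.80 ± 0.63). Ace had 0 and 5 counts on day 7 and 5 in the tested library of day 14, which held far fewer UMIs, a log2 change of 5.18 ± 1.37 that did not pass in 8 of 17 alternatives. With only monocytes that held 2 white blood cell genes, 1 of 15 genes of this list rose. Gngt2 and Ace overlap Abi3 and Gm11651 on the opposite strand, Il1b overlaps Il1bos and Irf7 overlaps Phrf1, and no source used here says whether counting used the strand.

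The genes lower on day 14 than on day 7 included genes of the injured tubule. All 10 tested genes of that list fell, among them Lcn2, which had 2214 and 1706 CPM on day 7 and no UMI on day 11 or 14. Against 3 counts, Lcn2 was at least 25.2-fold lower on day 14. Krt18, Krt19 and Cldn4, genes of epithelial keratins and a tight junction protein, had no UMI in the tested day 14 library, and Clu, a secreted chaperone, went from 14611 counts to 2, which is 192-fold lower (counting interval 53.0 to 1582). Among monocytes that held 2 white blood cell genes, 3 of these 10 genes fell. In the macrophages of day 7, Lcn2 had 388 and 275 CPM. Of 24 tested repair and matrix genes, 3 fell and none rose. Spp1, the gene of osteopontin, had 7630 and 6299 CPM on day 7, 235 and 919 on day 11, then 48.6 and 432 on day 14 (log2 change -4.12 ± 0.79). The other kept cells of day 7 held even more Spp1 (7905 and 10848 CPM). Mmp12, the macrophage elastase, had 604 and 480 CPM on day 7 and 0 and 27.0 on day 14, and was 20.98-fold lower on 1 against 800 counts (counting interval 3.76 to 830). Sdc4, a cell surface proteoglycan, was the third, 14.1-fold lower on 2 against 1072 counts (3.88 to 116).

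Against day 11, interferon genes were again among those higher on day 14. There were 173 calls among 9018 genes (1.92%), 83 higher (0.92%) and 90 lower (0.998%), and all 83 higher genes were at least 2 times as high in the monocytes as in other kept cells. Of the 33 interferon genes, 19 rose and none fell, with a median log2 change of 4.27 (3.49 with genes at 0 on 1 side set to 3 counts) against -0.49 over all genes. The comparisons with day 7 and day 11 share the day 14 library. The levels of the higher genes over other cells come from that library too, so they are no separate support. Ifi202b had 38 counts in the tested day 14 library and none in the 2 of day 11, and was at least 53.3-fold higher. Ifit3, Slfn1 and the chemokine gene Ccl12 were each at least 16.8-fold higher. With only monocytes that held 2 white blood cell genes, which leaves 1 day 11 library, 8 of 33 interferon genes rose. The number of calls was 55 and 58 without day 2 and day 4, and 676 without replicate 1 of day 11.

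Of 18 adhesion and chemokine receptor genes tested, 3 rose from day 11 to day 14 and none fell. Among the nonclassical monocyte genes, Cx3cr1 had 11.8 and 24.4 CPM on day 11 and rose by 4.06 ± 0.77. Fcgr1, an Fc receptor for IgG, had 23.5 and 0 CPM on day 11 and 146 and 324 on day 14, and was 25.3-fold higher on 12 against 2 counts (counting interval 5.62 to 232). Of the lower genes, 61 of 90 were below the level of other kept cells of day 11, and 7 of 17 tested proximal tubule genes fell. Ugt2b37, Echs1 and Ddah1 had no UMI in the tested day 14 library and were at least 10.6-, 4.99- and 4.67-fold lower. The single lower gene that was at least 2 times over other cells was Rpl10a-ps2, a pseudogene whose reads cannot be told apart with certainty from those of its parent gene.

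The day 11 monocytes differed from those of day 7 in many more genes, with tubule markers among them. There were 949 calls among 9018 genes (10.5%), 586 higher (6.50%) and 363 lower (4.03%). Of the higher genes, 331 were below the level of other kept cells of day 11 and 44 were at least 2 times over it. Of 17 proximal tubule genes tested, 14 rose and none fell, and of 10 injured tubule genes, 9 fell and none rose. Among called genes whose mean log2 CPM reached 6 and whose day 7 and day 11 libraries did not overlap, the largest rises were those of Kap, an androgen-regulated gene of the proximal tubule (8.14 ± 0.63), the methyltransferase gene Inmt (7.88 ± 0.55) and the transporter gene Slc7a13 (7.78 ± 0.54). Kap went from 91.7 and 164 CPM on day 7 to 30210 and 29107 on day 11, when the other kept cells had 32155 and 36933. With only monocytes that held 2 white blood cell genes, which leaves 1 day 11 library, 101 genes passed, 59 higher and 42 lower. Without replicates 1 and 2 of day 7, 381 and 399 genes passed. Of 11 endothelial genes, 4 rose (Kdr, Emcn, Ehd3 and Egfl7), and the part of endothelial RNA was not tested.

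Ccrl2, Ccl17, Klf2 and Wfdc17 rose on day 11 and were named because they were also higher in monocytes than in other cells. Ccrl2, a chemerin-binding receptor, had 66.9 and 51.6 CPM on day 7 and 364 and 130 on day 11 (2.31 ± 0.44). Ccl17, a chemokine gene typical of dendritic cells, had 316 CPM on day 1, 49.7 and 58.5 on day 7, then 212 and 203 on day 11 (2.22 ± 0.41), with at most 65.3 in the macrophages of any library. Klf2 (1.62 ± 0.40), a transcription factor gene, and Wfdc17 (1.24 ± 0.37), a secreted protein gene of myeloid cells, also rose. Il1b, Ccrl2 and Ccl17 still passed with only monocytes that held 2 white blood cell genes, whereas Klf2 and Wfdc17 did not. At least 2 of 14 dendritic cell genes were held by 51.5% and 22.9% of day 11 monocytes, by 18.5% and 27.7% on day 7, and by 0% and 13.8% on day 14. The part of dendritic cells in these changes was not tested.

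Pvalb and Hsd11b1 were also among the higher genes of day 11. Pvalb, a marker of the distal tubule, had 7.64 and 0.992 CPM on day 7 and 11.8 and 1162 on day 11, so its log2 change of 7.70 ± 0.91 rested on replicate 2. Without that library it was 1.99 and did not pass. Hsd11b1, which activates glucocorticoids, had 11.5 and 20.8 CPM on day 7 and 282 and 293 on day 11 (4.35 ± 0.46).

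From day 7 to day 11, 4.03% of all genes tested fell and 6.50% rose, the shares for the lists that follow. Of 24 inflammatory genes tested, 5 fell and 1 rose. Markers of T and NK cells moved with them: at least 2 of these were held by 14.1% and 18.6% of day 7 monocytes and by 3.03% and 8.57% on day 11, and 2 of 13 tested fell, Cd8a and Gzma. Their part in the result was not tested. Ccl5 had 504 and 474 CPM on day 7 and 23.5 and 24.4 on day 11 (-4.03 ± 0.54). At 800 UMIs per cell, Ccl5 was found in 20.97% and 18.9% of day 7 monocytes against 11.9% and 17.0% of proximal gate cells. The share of proximal gate cells was at most 0.135% on day 11, so it went down as well. Ccl2 had 124 and 143 CPM on day 7 and 11.8 and 0 on day 11. On 1 against 209 counts Ccl2 was 23.1-fold lower (counting interval 4.10 to 916), and it did not pass with only monocytes that held 2 white blood cell genes. Of 33 interferon genes, 7 fell and 1 rose, but no gene of this list passed in either direction with only monocytes that held 2 white blood cell genes. Of 28 classical monocyte genes, Plac8 (-2.76 ± 0.67), S100a6 (-1.65 ± 0.41) and Thbs1 (no UMI on day 11, at least 3.68-fold lower) fell and Msrb1 rose (1.48 ± 0.39). Among monocytes that held 2 white blood cell genes the change of Msrb1 turned to -1.08 and did not pass. Plac8 did not pass without replicate 2 of day 11 (-1.58). Its detection in replicate 1 of day 7 was no higher than in proximal gate cells, as given above. On day 11 at most 1.61% of proximal gate cells held it. Of 24 repair and matrix genes, 7 fell and none rose, among them Spp1 (-3.26 ± 0.53), Lgals3 (-1.44 ± 0.40) and Anxa2 (-1.74 ± 0.41). Of 24 proliferation genes, 3 fell and none rose: Mki67 (8.87-fold lower on 3 against 241 counts, counting interval 2.999 to 43.3), Top2a (-2.74 ± 0.58) and Tubb5 (-1.58 ± 0.42). At 800 UMIs, Spp1 was found in 83.9% and 62.8% of day 7 monocytes, and in 92.3% and 70.3% of proximal gate cells. On day 11 the shares were 12.1% and 20% against 10.7% and 11.6%. Whether the monocytes made this RNA themselves was not tested. Mki67 did not pass with only monocytes that held 2 white blood cell genes.

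Lcn2 and Clu, genes of the injured tubule, were among the genes that fell by day 11 and were higher in monocytes than in other cells on day 7. Lcn2 was at least 106-fold lower on day 11, and Clu fell from 11828 and 8351 CPM to 70.5 and 285 (-5.46 ± 0.58). Krt18, Krt19, Cldn4, Scnn1g and Sprr2g, also epithelial genes, and Gdf15, a stress-induced cytokine gene (-3.60 ± 0.74), fell as well. The other MHC class II genes apart from Cd74 (1.55 ± 0.46) did not pass on day 11, and on day 14 H2-Eb1 was the only one of 11 that passed (1.98 ± 0.53). It had 1016 and 2268 CPM on day 7 and 1117 and 7020 on day 14, so the change rested on replicate 2, and it did not pass in 10 of 19 alternatives. Cd74 no longer passed when replicate 1 of day 11 was left out (0.47), and at 800 UMIs it was found in 46.8% and 55.7% of day 7 monocytes against 58.8% and 45.0% of proximal gate cells.

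**Figure D4:**
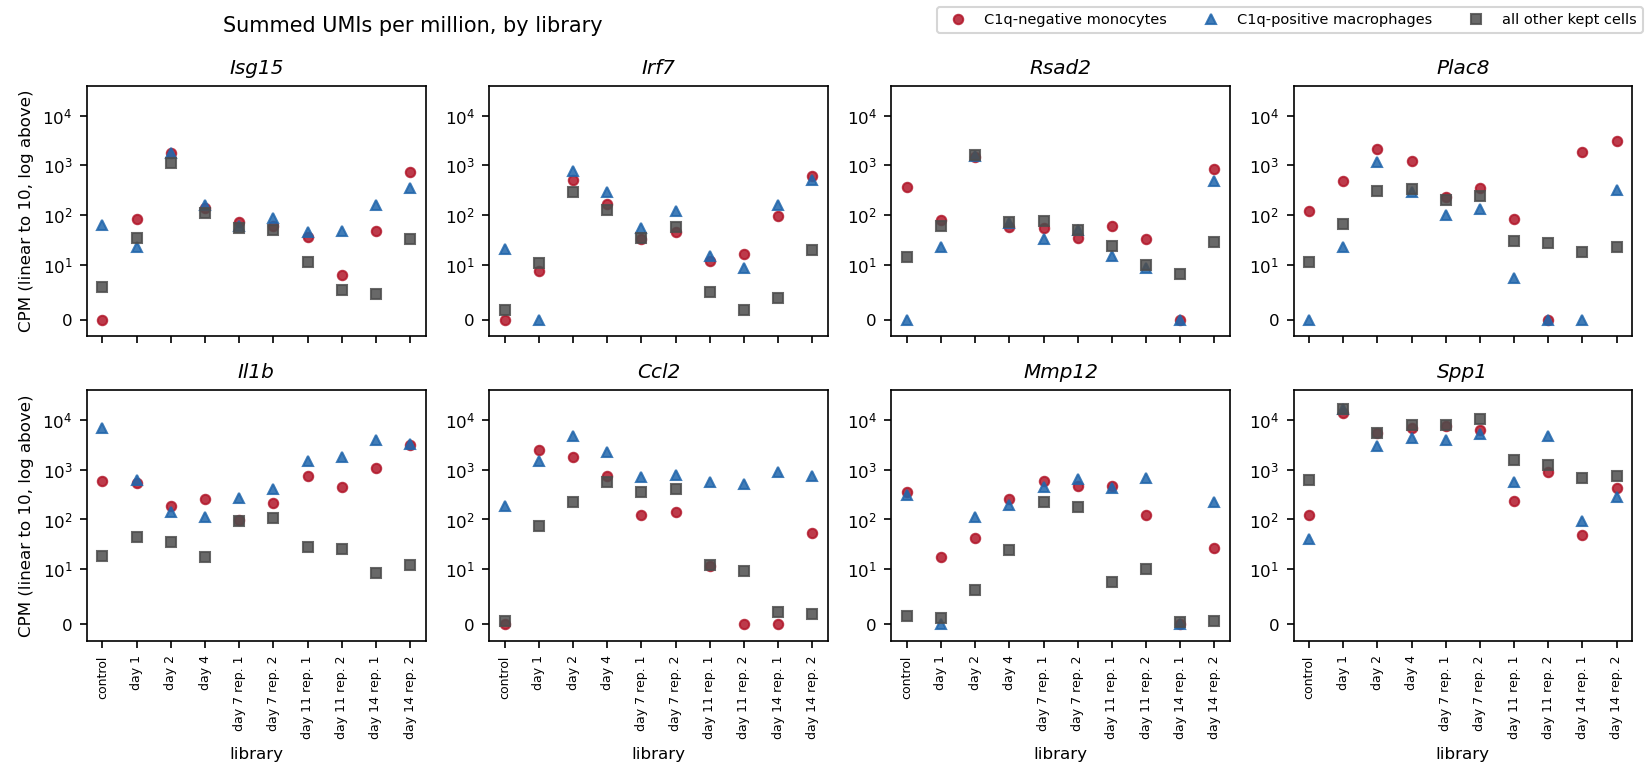
CPM of summed UMIs (linear up to 10, log above) of 8 genes in each library, for C1q-negative monocytes (red circles), C1q-positive macrophages (blue triangles) and all other kept cells, macrophages included (grey squares). Isg15, Irf7 and Rsad2 are high on day 2 in all 3 and in replicate 2 of day 14 in monocytes and macrophages. Plac8 is highest in the monocytes on days 1, 2 and 4 and on day 14, but has no monocyte UMI in replicate 2 of day 11, and Ccl2 goes down in them from 2500 on day 1 while it stays above 500 in the macrophages of the injured libraries.

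Across all days, 4 genes of 9018 (0.0444%) had a trend with log2 of the day in the monocytes, all downward. Ccl2, the ligand of CCR2, had 2500 CPM on day 1, 1829 on day 2, 741 on day 4, 124 and 143 on day 7, 11.8 and 0 on day 11, then 0 and 54.0 on day 14. It fell by 2.06 on the log2 scale for each doubling of the day (SE 0.28, edgeR adjusted p = 0.0167). S100a9, a calgranulin gene, went from 830 CPM on day 1 and 589 on day 2 to 11.9 on day 4 and at most 24.8 afterwards (-2.46 ± 0.30 per doubling). The others were Cxcr2 (-2.13 ± 0.29), a chemokine receptor of neutrophils, and Vcan (-1.57 ± 0.21), a matrix proteoglycan gene of classical monocytes. Their average log2 CPM was low (4.87 and 5.33), and they are named after their values were seen. Cxcr2 had 21 UMIs on day 1, 63 on day 2 and at most 5 in any later library. Vcan had 31 on day 1, 60 on day 2, 23 on day 4 and at most 10 in any later library. At an unadjusted p of 0.05, 529 genes passed, and no gene passed the adjusted threshold without either library of day 7. Without day 1 there were 12 and without day 2 there was 1.

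S100a9 and Cxcr2 are themselves on the list of neutrophil markers, so the list's share of monocyte UMIs (0.162% on day 1, 0.147% on day 2 and at most 0.0106% on the later days) is no separate measure of neutrophil RNA. S100a8, another gene of that list, had 567 CPM on day 1, 653 on day 2, 23.9 on day 4 and at most 42.0 afterwards, and did not pass (edgeR adjusted p = 0.0878). The part of neutrophil RNA in the result was not tested. Of the monocytes, 15 passed a neutrophil gate that also uses Cxcr2, 12 of them on day 2. Without monocytes that held markers of another lineage, which selected on S100a9 and Cxcr2 among other genes and also left out both day 11 libraries (6 of 8 kept), no gene had a trend. The slopes were then -1.37 for S100a9 and -1.66 for Ccl2.

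The course of 41 of 10138 genes (0.404%) differed between monocytes and C1q-positive macrophages, 7 higher and 34 lower in the slope of the monocytes minus that of the macrophages. Of the 34 lower genes, 14 were below the level of other kept cells. Markers of other cells were among the lower genes: 3 of 14 genes of other nephron segments (Aqp2, Hsd11b2 and Atp6v1g3), 1 of 10 injured tubule genes, 1 of 8 stromal genes and 2 of 7 neutrophil genes, and their part in the result was not tested. This test used 7 libraries, since day 1 held 19 macrophages. Of 23 macrophage differentiation genes tested, 4 had the lower slope in monocytes, among them Apoe, Trem2 and Gpnmb, and none the higher. Apoe, the lipid carrier, had 640 CPM on day 2, 2730 on day 4, 1517 and 729 on day 7, 517 and 341 on day 11 and 1620 in replicate 2 of day 14 in the monocytes. In the macrophages it had 1553 CPM on day 2, 10632 on day 4 and between 12370 and 23842 in the later libraries tested. At 800 UMIs per cell, Apoe was found in 62.9% and 33.4% of day 7 monocytes, near the 57.7% and 32.0% of proximal gate cells. It was found in 94.3% and 92.6% of macrophages. The difference in slope was -1.44 ± 0.25 per doubling (edgeR adjusted p = 0.00146). Trem2, a lipid-sensing receptor of macrophages, was at most 75.7 CPM in the monocytes of any library and reached 375 in the macrophages (-1.90 ± 0.33).

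Of 27 inflammatory cytokine and chemokine genes, Ccl2, Ccl7 and Ccl8 had the lower slope in monocytes and none the higher. Ccl2 stayed at 583 and 513 CPM in the day 11 macrophages and 737 in replicate 2 of day 14, while it was at most 54.0 in the monocytes of those days (difference in slope -1.10 ± 0.24). Ccl7 had 657 CPM on day 2 in the monocytes and 0 in replicate 2 of day 14, and 1934 and 134 in the macrophages (-1.38 ± 0.27). Ccl8 reached 1718 CPM in day 11 macrophages and at most 16.9 in monocytes (-2.04 ± 0.49). S100a8 (-1.76 ± 0.35), Apoc2 (-2.06 ± 0.39), Lyz1 (-1.43 ± 0.28), Msr1 (-1.28 ± 0.29) and Ms4a6d (-1.13 ± 0.24) also had the lower slope. The last 300 bases of Lyz1 and Lyz2 are 95.3% identical, so Lyz1 is uncertain. The higher slopes belonged to 7 genes, among them Retnla (3.63 ± 0.59), Rrm2 (1.75 ± 0.40), Uchl3 (1.11 ± 0.26) and Hspd1 (0.77 ± 0.19). Retnla had 0 monocyte UMIs on days 2, 4 and 14, 27 and 186 on day 7, and 10 and 2 on day 11. Rrm2 had 28 and 132 on day 7, 1 and 2 on day 11 and 0 on day 14. The higher slope of Retnla and Rrm2 is therefore no steady rise in the monocytes. The number of calls was 5 without day 2, 19 without day 4, 7 without replicate 1 of day 7, 69 without replicate 2 of day 11 and 73 without replicate 2 of day 14. No interferon gene of 33 differed in slope, with 1 at an unadjusted p of 0.05.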

How the data were processed

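Single-cell suspensions were processed by Drop-seq, which captures the RNA of each cell on a barcoded microbead and reads its 3' end, per the labels' protocols. The deposited values are counts, whole numbers per gene symbol and cell barcode in 1 table per library, read here as UMI counts. Bowtie2 2.2.7 and the build mm10 are named in the submitters' processing notes. Other steps are not given in the sources used here. The authors' tables hold 64803 barcodes and 173806985 UMIs (7091848 to 31632205 per library). Filters on genes removed 10786 barcodes, all from day 11, whose tables reach lower than the others, and the mitochondrial filter removed 1220.

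The monocyte rule, the gene lists and the rule for named genes were chosen with earlier results of these data known. Monocyte counts were summed per library (median 1079 to 1803 UMIs per cell) and tested with edgeR 4.0.16 (R 4.3.3): filterByExpr, TMM scaling, 1 term per day, or log2 day, or log2 day by cell class with a term per library, quasi-likelihood F tests and Benjamini-Hochberg adjustment at 0.05. The SE is the absolute change divided by the square root of F. Named genes were the 10 per direction with the largest change among called genes with average log2 CPM of at least 6, libraries that do not overlap (for a trend, the same sign without each library), and at least 2 times the level of other cells. The 3 largest without that last condition and up to 4 called genes per list were added. A count of 0 allows up to 3 counts. Shares have exact (Clopper-Pearson) 95% intervals, and both cover counting error only. Trends of shares used exact permutation over 9 libraries. Doublets were scored with Scrublet (scanpy 1.11.5), whose own cutoff called no more than 0.111% of any library, so leaving out the highest 5% was an alternative. Other alternatives were DESeq2 1.42.0, median-ratio scaling, no filter, stricter rules, cells thinned to 800 UMIs and leaving out libraries. The planned comparison of day 7 with the control was not run, since the control held 5 monocytes. Scripts were tested on simulated data. Of 119 named genes, 31 overlap a gene on the other strand and 17 one on the same strand in GENCODE M21. Some genes that met the rule for named genes are not reported here.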

Additional observations from a re-analysis of the deposited data

Results flagged for a closer look

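The course over days 2 to 14 differed between C1q-negative monocytes and C1q-positive macrophages, by a direct test of the difference in slope (log2 per doubling of the day, edgeR adjusted p under 0.05), for 41 of 10138 genes. The 11 of them chosen by the size of the change or by the level over other cells are given here. The slope was lower in monocytes for Col1a2 (-2.54), Cp (-2.24), Gpnmb (-2.08), Apoc2 (-2.06), S100a8 (-1.76), Lyz1 (-1.43), Ccl7 (-1.38), Msr1 (-1.28) and Ms4a6d (-1.13). It was higher for Uchl3 (1.11) and Hspd1 (0.77). Col1a2, a collagen gene of stromal cells, had a slope difference of 1.37 with only monocytes that held 2 white blood cell genes.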

How the results depend on the processing

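Alternatives that admitted libraries with 10 monocytes, selected on white blood cell genes or left out proximal gate cells were chosen after seeing the data. Counts of called genes moved by over 1.5 times as follows, against 949 for day 11 against day 7, 159 for day 14 against day 7, 173 for day 14 against day 11, 4 for the trend and 41 for the difference in trend. With DESeq2 they were 403, 92, 93, 14 and 24. With the replicate block the 3 comparisons of days gave 553, 53 and 19 among 3740 genes tested, against 9018 without it. The labels do not pair the libraries, and the deviations of same-numbered day 7 and day 11 libraries had a correlation of 0.04 over 9018 genes. With white blood cell genes required they were 101 (day 11 against 7), 35 (day 14 against 11), 7 (trend) and 112 (difference). Without proximal gate cells they were 325, 50 (day 14 against 11), 12 and 150. With libraries of at least 10 monocytes, day 14 gave 401 against day 7 and 409 against day 11. Only the 2 groups compared gave 366 for day 14 against 7. Without markers of other lineages the counts were 322 (day 14 against 7), 0 (trend) and 73 (difference), and with at least 3 positive genes 2 (trend) and 83 (difference), both without the day 11 libraries. Without a filter on low counts they were 21 (trend) and 79 (difference), and without high doublet scores 62 (difference). Leaving out 1 library gave 381 to 1258, 69 to 372, 55 to 676, 0 to 12 and 5 to 73 calls in the 5 tests. Against day 7, day 14 gave 69 calls without day 2 or day 4, 372 and 367 without either day 11 library. Median-ratio scaling moved the median change of all genes on day 14 from -0.62 to -0.48 against day 7 and from -0.49 to -0.39 against day 11, and no named gene changed sign. The causes were not tested.

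The trend of the monocyte share had rho of -0.72 with at least 3 positive genes (exact permutation, adjusted p = 0.0713) and -0.69 without proximal gate cells, and -0.91 to -0.67 without 1 library. The balance with macrophages had rho of -0.60 to -0.25 without 1 library and 0.13 without days 1 and 2. For 156 named genes and comparisons, 2762 alternative values were computed, of which 2175 kept sign and side of the threshold, 580 no longer passed and 7 changed sign. With white blood cell genes required these were, on day 11 against 7, Cd36 (-0.081), Irgm1 (0.64), Msrb1 (-1.08) and Sepp1 (-0.38), and Col1a2 in the difference in trend (1.37). Without proximal gate cells Tpi1 on day 11 was -0.23, and without high doublet scores Slco1a1 on day 14 against 7 was -2.97. Settings that drop a day below 20 monocytes gave no value for it. In replicate 1 of day 14, with 20589 UMIs, a gene without a UMI may still have up to 3 counts.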
